A study of Mus musculus with 15 samples.

Results

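The genes described here are 10 genes of iron storage, transport and release, Fth1, Ftl1, Tfrc, Trf, Slc40a1, Slc11a2, Cp, Heph, Hmox1 and Hfe, taken by symbol from the 40481 genes of a mouse RNA-seq series. All 10 were found and all 10 passed the filter on low counts that left 17991 genes for testing. RNA came from the RPE/choroid complex, that is, the retinal pigment epithelium (RPE) with the vascular layer that feeds it. The 7 control libraries have the genotype Abca1/Abcg1 flox/flox LysM-Cre. The 8 INK-ATTAC libraries have the same genotype plus INK-ATTAC, a transgene that expresses a fusion of FKBP and caspase 8 from the INK4a promoter. All 15 libraries are labelled as treated with AP20187 by i.p. injection, the drug that joins the fusion proteins and sets off death of the cells that make them. The series text gives injections on alternate days over 3 months for the mice with the transgene. LysM-Cre acts in myeloid cells, so the loss of the cholesterol exporters Abca1 and Abcg1 is directed to those cells and is shared by both groups. No group lacks the floxed alleles or the drug. The labels give neither the age of the mice nor whether each library is a separate animal, so p-values here measure the spread between these libraries.

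Cells take up iron as transferrin (Trf) bound to the transferrin receptor (Tfrc), and the divalent metal transporter Slc11a2 moves it from endosomes into the cytosol. Ferritin, a shell of heavy (Fth1) and light (Ftl1) chains, stores it. Ferroportin (Slc40a1) exports it, with the help of the ferroxidases ceruloplasmin (Cp) and hephaestin (Heph). Hmox1 frees iron from heme, and Hfe takes part in the sensing of transferrin-bound iron. The RPE lies between the choroidal blood and the photoreceptors, takes up iron on its way to the retina and digests shed photoreceptor membrane, and iron overload is known to damage it.

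Counts per library ranged from 39121503 to 65065950. Levels are given as CPM, read counts scaled to a common library size that was set by the trimmed mean of M-values (TMM). Markers of the labelled tissue were abundant: the summed RPE list came to 65401 to 86993 CPM across controls and 71880 to 98148 CPM across INK-ATTAC libraries, with Rgr, an opsin of the RPE, its top gene. Markers of tissue next to the RPE were also present and varied. Summed skeletal muscle markers, led by Acta1, ranged from 259 to 2209 CPM across controls and 627 to 3193 CPM across INK-ATTAC libraries. Summed lens markers, led by Cryaa, ranged from 21.3 to 868 CPM and from 22.1 to 4216 CPM in the same order. Summed erythrocyte markers, led by Hbb-bs, ranged from 256 to 2011 CPM and from 142 to 1673 CPM. In bulk RNA, fewer cells of a type and less RNA per cell cannot be told apart.

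A search for the iron-responsive element, a hairpin that iron regulatory proteins bind when iron is scarce, matched transcripts of 4 of the 10 genes. In a 5′ UTR the bound hairpin holds back translation, and in the 3′ UTR of Tfrc it protects the RNA from decay. The elements are shown because their place in the transcript differs between the matched storage and export genes, where it is the 5′ UTR, and Tfrc, where it is the 3′ UTR. Each window of 27 bases was read from GENCODE transcripts of GRCm38 in the sense of the RNA, with T for U, and the capitals mark the loop CAGTGN.
Fth1, 5′ UTR, chr19:9982733-9982759, plus strand: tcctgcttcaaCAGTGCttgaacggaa
Ftl1, 5′ UTR, chr7:45459780-45459806, minus strand: tcttgcttcaaCAGTGTttgaacggaa
Slc40a1, 5′ UTR, chr1:45925466-45925492, minus strand: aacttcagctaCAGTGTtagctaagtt
Tfrc, 3′ UTR, chr16:32631220-32631246, plus strand: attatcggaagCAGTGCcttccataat
Tfrc, 3′ UTR, chr16:32631599-32631625, plus strand: attatcgggagCAGTGTcttccataat
Tfrc, 3′ UTR, chr16:32631664-32631690, plus strand: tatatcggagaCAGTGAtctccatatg
Tfrc, 3′ UTR, chr16:32631711-32631737, plus strand: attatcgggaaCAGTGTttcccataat

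The pattern searched was a bulged C, 5 bases, the loop CAGTGN with a last base other than G, and 5 bases that pair with the first 5, on the transcript strand alone. G with T counted as a pair. Of 21901 protein-coding genes, 23 (0.105%) held it in a 5′ UTR and 100 (0.457%) in a 3′ UTR. When at least 4 of the 5 pairs below the bulge were also required, 6 genes (0.0274%) held it in a 5′ UTR and 7 (0.032%) in a 3′ UTR. Those shown here all meet the stricter pattern. Tfrc was the 1 gene with at least 3 matches in its 3′ UTR. Matches outside the 10 genes were listed only for the further iron genes described later on, and not on every chromosome. Outside the 10 genes, the heme synthesis gene Alas2, whose 5′ UTR element is a textbook case, also matched, at chrX:150547459-150547485: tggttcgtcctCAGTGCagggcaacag. The other 6 genes had no match to these letters, which says nothing of other forms of the element. Slc11a2 is among them, although one of its transcript forms is known to carry an element in its 3′ UTR.

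Ferritin transcripts stood far above the rest. By mean CPM, which is not per length, Fth1 ranked 7 and Ftl1 ranked 18 among the 17991 genes tested, and they made up 1.20% and 0.479% of all counts. Trf, which the RPE is known to make for the outer retina, ranked 72. The other 7 genes ranked between 1623 for Slc40a1 and 4551 for Heph. To compare genes, levels were divided by the length of one principal transcript per gene. On that scale Fth1 averaged 12766 ± 1934 CPM per kb (SD, n = 15), Ftl1 4942 ± 377 and Trf 451 ± 51.8. Each of these 3 was above the next gene in all 15 libraries. A second tier held Slc40a1 at 28.7 ± 4.63 CPM per kb, Hmox1 at 28.0 ± 3.33, Hfe at 18.9 ± 1.73, Cp at 18.5 ± 3.08 and Slc11a2 at 17.5 ± 1.31. Within it, Slc40a1 was above Hmox1 in 8 of 15 libraries, Hfe above Cp in 11 and Cp above Slc11a2 in 9, so these neighbours did not differ beyond their spread. Hmox1 was above Hfe in 14 of 15 libraries. Heph (6.52 ± 0.97 CPM per kb) and Tfrc (6.34 ± 0.81) were lowest, with Heph above Tfrc in 9 of 15.

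The order depends on the length used. With all annotated exons merged, Fth1 came to 3419 CPM per kb and Ftl1 to 3570, so the order of the ferritin chains turned, and Slc40a1 moved from rank 4 to rank 6. Trf kept its rank at 349 CPM per kb. Heph and Tfrc stayed the lowest pair.

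**Figure D1:**
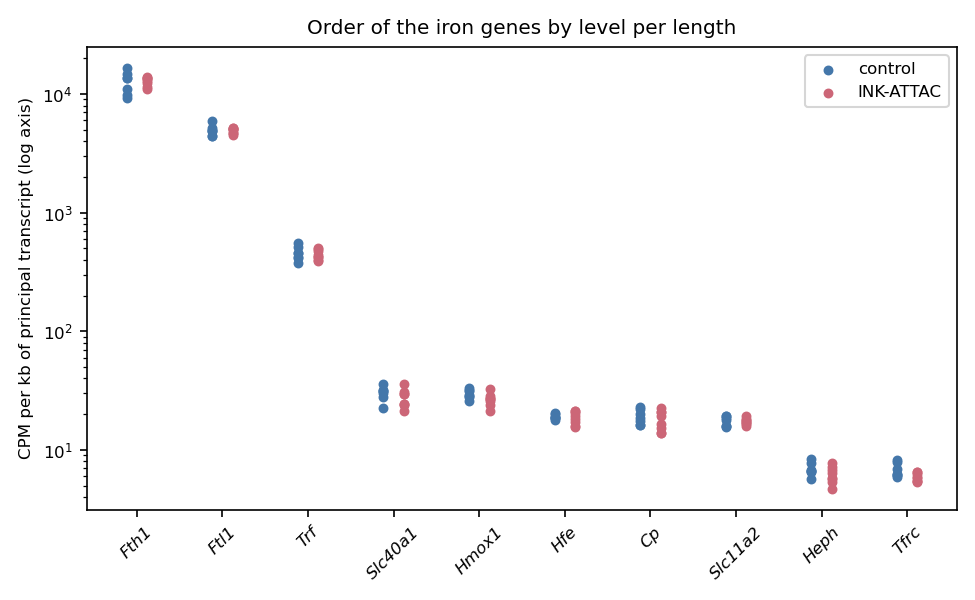
Level of each iron gene in CPM per kb of its principal transcript, on a log axis, with 1 point per library (blue, 7 control; red, 8 INK-ATTAC). Fth1, Ftl1 and Trf form separate steps near 12766, 4942 and 451, while the genes from Slc40a1 to Slc11a2 overlap and Heph and Tfrc lie lowest.

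The comparison of INK-ATTAC with control sets libraries with the transgene against libraries without it. How far cells that express p16Ink4a were removed was not tested here. By edgeR's quasi-likelihood test, 0 of the 10 genes had an adjusted p under 0.05, as had 0% of the 17991 genes tested (Benjamini-Hochberg over all genes, adjusted p = 1.00 for each of the 10). At an unadjusted p under 0.05 there was 1 of 10, Tfrc, against 4.14% of all genes. DESeq2 also called 0 of the 10 by adjusted p, against 0.0267% of its genes, and had Tfrc alone at an unadjusted p under 0.05, against 3.13%. The log2 fold change, INK-ATTAC against control throughout, was below 0 for 9 of 10 genes, against 50.2% of all genes, with a median of -0.07 and a range of -0.20 to 0.02. The median over all genes tested was -0.00097. The group ranges overlapped for each of the 10, and 0.0222% of all genes had ranges that did not.

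Several marker lists lay wholly or mostly on one side too, some higher and some lower, with no marker past the threshold. All 12 skeletal muscle markers were higher in INK-ATTAC libraries (median log2 fold change 0.87), as were all 12 tested lens markers (median 2.70) and all 6 tested adipocyte markers (median 0.36). Lower were 12 of 13 rod markers (median -0.22), 10 of 12 macrophage markers (-0.03) and 7 of 8 melanocyte markers (-0.08). All 5 tested neutrophil markers (-0.14) and all 7 tested erythrocyte markers (-0.44) were lower too. With skeletal muscle level as a covariate, edgeR gave log2 fold changes of -0.29 for Tfrc (unadjusted p = 0.0027, adjusted p = 0.847), -0.22 for Heph and -0.14 for Hmox1. Fth1 was 0.14 in that fit and Cp 0.02. The part of lens and adipocyte RNA in these values was not tested.

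**Figure D2:**
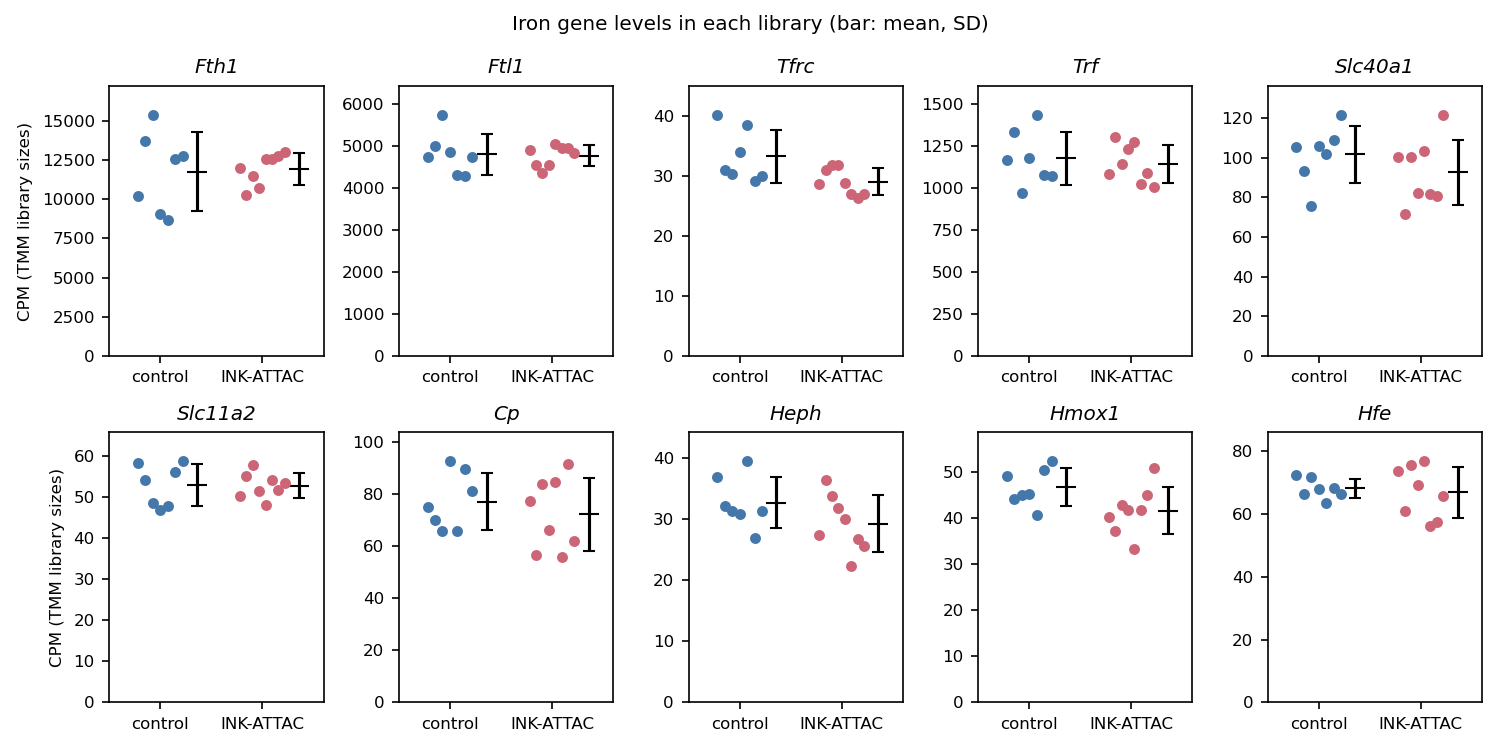
Level of each iron gene in CPM in every library, on linear axes from 0 (blue, 7 control; red, 8 INK-ATTAC; points from left to right are libraries in label order, and the black bar is mean and SD). The groups overlap in every panel.

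Of the storage genes, the heavy chain Fth1 (chr19:9980598-9985098, plus strand, GRCm38) had 8648, 12603 and 15386 CPM as its lowest, median and highest control. In INK-ATTAC libraries these were 10298, 12287 and 13015 CPM. Controls 5, 4 and 1 were the lowest of all 15 libraries, at 8648, 9083 and 10181 CPM, and controls 3 and 2 the highest, so the INK-ATTAC range lay inside the control range. Mean CPM was 11769 ± 2520 for control and 11938 ± 999 for INK-ATTAC (SD, n = 7 and 8), and the log2 fold change was 0.02 (SE 0.11, 95% interval -0.21 to 0.25). The light chain Ftl1 (chr7:45457944-45459884, minus strand) was steadier. Its lowest, median and highest control had 4292, 4732 and 5737 CPM, against 4362, 4866 and 5040 CPM in INK-ATTAC libraries. Control 3 was highest and the other libraries of both groups were mixed, with a log2 fold change of -0.01 (SE 0.06, interval -0.14 to 0.12). The intervals leave room for a difference of up to 0.25 on the log2 scale for Fth1 and of 0.14 in size for Ftl1.

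The ratio of heavy to light chain transcripts per kb was 2.55 ± 0.44 for control and 2.61 ± 0.15 for INK-ATTAC (mean ± SD, n = 7 and 8). Controls 4, 5 and 1 had the lowest ratios, 1.95, 2.09 and 2.24, and the other 4 controls lay between 2.79 and 3.06. INK-ATTAC libraries lay between 2.36 and 2.81, between those controls and the others, and overlapped the lower of the latter. The ratio came to 0.94 and 0.97 with merged exon lengths, so its absolute value is a matter of the length used and only its spread across libraries carries over.

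Ferritin has many processed copies in the genome, and reads can be shared with them. Among the rows named as ferritin pseudogenes, Ftl1-ps1 held a median of 4306 counts, or 1.85% of the Ftl1 count, Ftl1-ps2 held 1076, Ftl2-ps 408 and Fth-ps2 119. With these added to their parents the ratio was 2.48 for control and 2.55 for INK-ATTAC. The annotation also places Gm10252 on the strand opposite to Ftl1, over 26.5% of its exon bases. Whether counting used strand is not given in the sources used here, so reads of the opposite strand cannot be told apart.

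Of the uptake genes, the transferrin receptor gene Tfrc (chr16:32608920-32632794, plus strand) had the lowest p of the 10. Its lowest, median and highest control had 29.2, 30.9 and 40.1 CPM, and its INK-ATTAC libraries 26.3, 28.7 and 31.8 CPM. Controls 1, 5 and 4 stood above every INK-ATTAC library at 40.1, 38.5 and 33.9 CPM, while the other 4 controls lay among them. All 7 controls were above the INK-ATTAC median. Mean CPM was 33.2 ± 4.43 for control and 29.0 ± 2.23 for INK-ATTAC (SD, n = 7 and 8), which gave a log2 fold change of -0.20 (SE 0.08, interval -0.36 to -0.03). By edgeR's quasi-likelihood test the unadjusted p was 0.0255 and the adjusted p 1.00. Without control 1 the log2 fold change was -0.16 (edgeR unadjusted p = 0.0624), and without control 5 the unadjusted p was above 0.05 as well. With each library’s GC slope as a covariate, a measure defined with the relations between genes further on, it was -0.12 (edgeR unadjusted p = 0.0653). With the length slope defined there it was -0.26 (edgeR unadjusted p = 0.0018, adjusted p = 0.366). With limma-voom and sample quality weights it was -0.16 (limma unadjusted p = 0.0555). In the authors' deposited table Tfrc had a log2 fold change of -0.15 and a p of 0.062.

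Trf (chr9:103204001-103230444, minus strand), the iron carrier, had 971, 1167 and 1434 CPM as its lowest, median and highest control and 1003, 1114 and 1304 CPM in INK-ATTAC libraries. Control 5 was the highest and control 3 the lowest of all libraries, and the log2 fold change was -0.04 (SE 0.08). Gm20425, a gene model on the same strand, shares 63.5% of the exon bases of Trf and held 0 to 31 counts per library. Slc11a2 (chr15:100387898-100425072, minus strand) had 46.9, 54.1 and 58.7 CPM across controls and 48.2, 52.6 and 57.9 CPM across INK-ATTAC libraries, with every INK-ATTAC library inside the control range. It had the smallest difference of the 10, a log2 fold change of -0.0036 (SE 0.06, interval -0.14 to 0.13). Hfe (chr13:23702034-23710854, minus strand) had 63.5, 67.9 and 72.5 CPM across controls and a wider 56.3, 67.4 and 76.8 CPM across INK-ATTAC libraries, with libraries of the latter group at both ends and a log2 fold change of -0.03 (SE 0.07).

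Of the export genes, Slc40a1 (chr1:45908068-45926523, minus strand), the only known iron exporter of animal cells, had 75.6, 105 and 122 CPM as its lowest, median and highest control. In INK-ATTAC libraries these were 71.7, 91.1 and 121 CPM. Control 3 and INK-ATTAC 2 were low, control 7 and INK-ATTAC 8 were high, and the log2 fold change was -0.13 (SE 0.11, interval -0.37 to 0.10). Cp (chr3:19957054-20009145, plus strand), a copper-bound ferroxidase, had 65.6, 75.0 and 92.4 CPM across controls and 55.7, 71.5 and 91.5 CPM across INK-ATTAC libraries. INK-ATTAC 6, 2 and 8 were below every control, and the other 5 were spread over the control range, with a log2 fold change of -0.10 (SE 0.12, interval -0.34 to 0.15). Heph (chrX:96455359-96574485, plus strand), the membrane-bound relative of Cp, had 26.9, 31.4 and 39.5 CPM across controls and 22.3, 28.8 and 36.5 CPM across INK-ATTAC libraries. INK-ATTAC 6, 8 and 7 were below every control and controls 5 and 1 above every INK-ATTAC library, with a log2 fold change of -0.16 (SE 0.10, interval -0.38 to 0.06). It was -0.08 with the GC slope and -0.24 with the length slope as a covariate.

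Hmox1 (chr8:75093621-75100589, plus strand), the inducible heme oxygenase and a common stress gene, had the second lowest p. Its lowest, median and highest control had 40.7, 45.3 and 52.2 CPM, against 33.3, 41.8 and 50.7 CPM in INK-ATTAC libraries. INK-ATTAC 5, 2 and 1 were below every control, control 7 was the highest, and INK-ATTAC 8 was above every control but that one. Mean CPM was 46.7 ± 4.05 for control and 41.6 ± 5.14 for INK-ATTAC (SD, n = 7 and 8), and the log2 fold change was -0.17 (SE 0.08, interval -0.34 to 0.003). Its unadjusted p by edgeR's quasi-likelihood test was 0.0538 (adjusted p = 1.00). In the authors' deposited table the p of Hmox1 was 0.0363 (adjusted p = 0.763), with a log2 fold change of -0.18, and it was the 1 of the 10 genes there with a p under 0.05, against 6.42% of all genes in that table. All 10 genes had a log2 fold change below 0 in the authors' deposited table, where 51.3% of all genes had one. With the length slope as a covariate the log2 fold change of Hmox1 in edgeR was -0.10 (unadjusted p = 0.161), and with the GC slope it was -0.22 (unadjusted p = 0.012, adjusted p = 0.756).

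**Figure D3:**
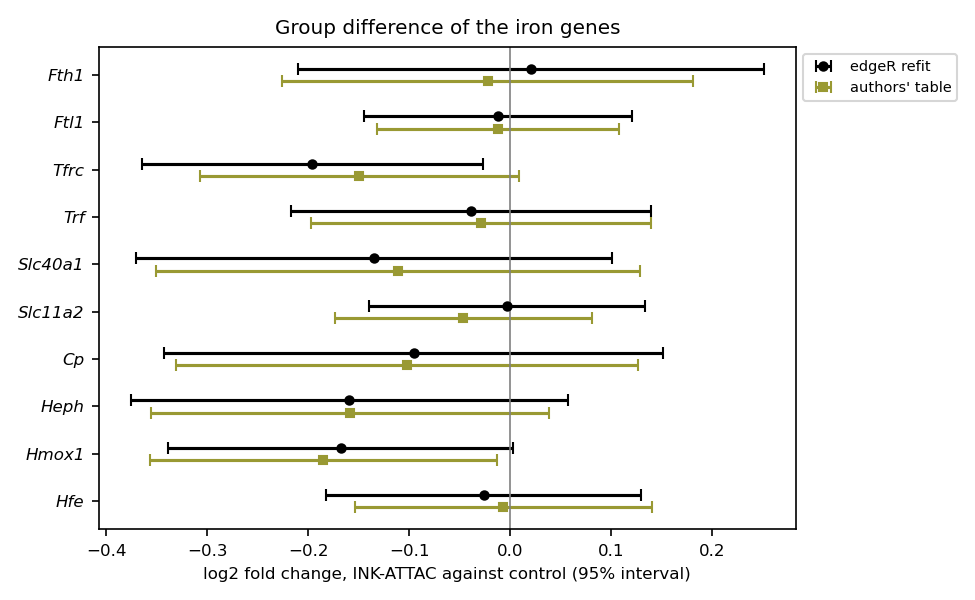
Log2 fold change of each iron gene, INK-ATTAC against control, with its 95% interval, from the edgeR refit (black circles) and from the authors' deposited table (olive squares). The refit runs from -0.20 for Tfrc to 0.02 for Fth1, and the interval of Tfrc in the refit and of Hmox1 in the authors' table are the ones that do not reach 0.

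The rest of iron handling was described with 75 further genes in 7 lists, of which 70 passed the filter. By edgeR's quasi-likelihood test 0 of 70 had an adjusted p under 0.05, and at an unadjusted p under 0.05 there were 2 higher and 1 lower, beside the 4.14% of all genes. The log2 fold change was above 0 for 37 and below 0 for 33, with a median of 0.0032. The 2 on the higher side were Ppox, which makes protoporphyrin in heme synthesis (log2 fold change 0.13), and Abcb6, a porphyrin transporter (0.80). Ppox had 26.2 to 28.9 CPM across controls and 28.4 to 32.9 CPM across INK-ATTAC libraries, so the groups overlapped. Abcb6 held only 2 to 25 counts per library. Other genes of low p were the metal importer Slc39a14 (0.27), the iron regulatory protein gene Ireb2 (-0.19), the biliverdin reductase gene Blvrb (0.16), the hepcidin regulator gene Hjv (0.59) and Alas2 (-0.70). Alas2, the heme synthesis gene of red cell precursors, ranged from 4.50 to 39.8 CPM across controls and 2.02 to 19.0 CPM across INK-ATTAC libraries. The 7 tested erythrocyte markers were all lower too, with a median of -0.44 and none past the threshold, and their part in the value of Alas2 was not tested.

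By list, heme synthesis had 8 of 11 genes higher (median 0.08), mitochondrial iron and iron-sulfur clusters 10 of 15 higher (median 0.02) and heme uptake, export and breakdown 9 of 14 lower (median -0.02). All 3 genes of the iron regulatory protein group, Aco1, Ireb2 and Fbxl5, were lower with a median of -0.08, and none passed. Over all genes tested 50.2% were lower, and the counts by list were not tested against that share. Known partners of the 10 genes were measured too. B2m, the light chain that Hfe needs to reach the surface, had a mean of 1649 ± 283 CPM for control and 1659 ± 182 for INK-ATTAC (SD, n = 7 and 8). Aco1 (iron regulatory protein 1) had means of 136 and 133 CPM, and Fbxl5, which targets the other regulatory protein for degradation, of 89.4 and 84.8 CPM. Ncoa4, which delivers ferritin to the lysosome, had a log2 fold change of -0.13 (SE 0.12). The constitutive heme oxygenase Hmox2 had means of 59.4 and 58.6 CPM, and Tfr2, the other transferrin receptor, of 3.67 and 4.06 CPM. Hamp, which encodes the hormone hepcidin that removes ferroportin, held 0 to 4 counts per library, and Ftmt, mitochondrial ferritin, held 0 counts in all 15. A count of 0 in a single library, taken alone, allows an expected count of up to 3, and the 15 together allow less per library.

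The 10 genes were then compared with each other across the 15 libraries. Over 45 pairs of the 10 genes, on log2 CPM, 1 pair had an adjusted p under 0.05: Tfrc and Heph, with a Pearson r of 0.83 and a Spearman rho of 0.88 (permutation p = 0.0001 and adjusted p = 0.0045 for r). The r was 0.76 without controls 1 and 5, 0.86 within controls and 0.85 within INK-ATTAC libraries. Fth1 and Tfrc ran in opposite directions, with r = -0.71 and rho = -0.68 (permutation p = 0.0031, adjusted p = 0.0672), which did not pass after adjustment. That r was -0.79 within controls, -0.85 within INK-ATTAC libraries and -0.55 without controls 4 and 5. Controls 1, 4 and 5, which had the lowest Fth1, had the highest Tfrc. Trf and Heph gave r = 0.69 and rho = 0.65 (permutation p = 0.0045, adjusted p = 0.0672), and Fth1 with Ftl1 gave r = 0.62 and rho = 0.54 (permutation p = 0.0142, adjusted p = 0.128). Without the 2 libraries farthest from the median these were 0.71 and 0.68, within controls 0.62 and 0.60, and within INK-ATTAC libraries 0.83 and 0.75.

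A measure of the libraries as a whole moved with these levels. For each library the deviation of 9324 genes from their mean level was fitted on their transcript GC percent and, separately, on their log2 transcript length, both chosen after the data were seen. The GC slope was lowest in controls 5, 4 and 1, at -0.031, -0.023 and -0.012 log2 per GC percent, and between -0.0078 and 0.017 in the other 12 libraries. Over 20 relations of the 10 genes with the 2 slopes, Fth1 rose with the GC slope at r = 0.89 and rho = 0.83 (permutation p = 1e-05, the smallest these resamples can give, adjusted p = 0.0002). Its r was 0.74 without controls 4 and 5, 0.99 within controls and 0.51 within INK-ATTAC libraries. Tfrc (r = -0.79, rho = -0.74, adjusted p = 0.0078), Trf (r = -0.71, rho = -0.75, adjusted p = 0.0127) and Heph (r = -0.65, rho = -0.59, adjusted p = 0.0363) ran against it, each by the permutation test. By rho the adjusted p of Heph was 0.0888, which missed the threshold, and the other 3 passed. Without controls 4 and 5 these were -0.70, -0.66 and -0.64. Within controls they were -0.80, -0.69 and -0.61, and within INK-ATTAC libraries -0.76, -0.86 and -0.78. With the GC slope taken out of both genes, the r of Fth1 with Tfrc was -0.03, that of Fth1 with Trf went from -0.62 (rho = -0.55, permutation adjusted p = 0.128) to 0.04, that of Trf with Heph went to 0.42 and that of Tfrc with Heph to 0.68. With the length slope taken out, Fth1 with Tfrc gave -0.67. Fth1 transcripts are 53.4% GC, Tfrc 39.8%, Heph 45.8% and Trf 52.5%, so Trf ran against the slope at a GC content near that of Fth1.

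**Figure D4:**
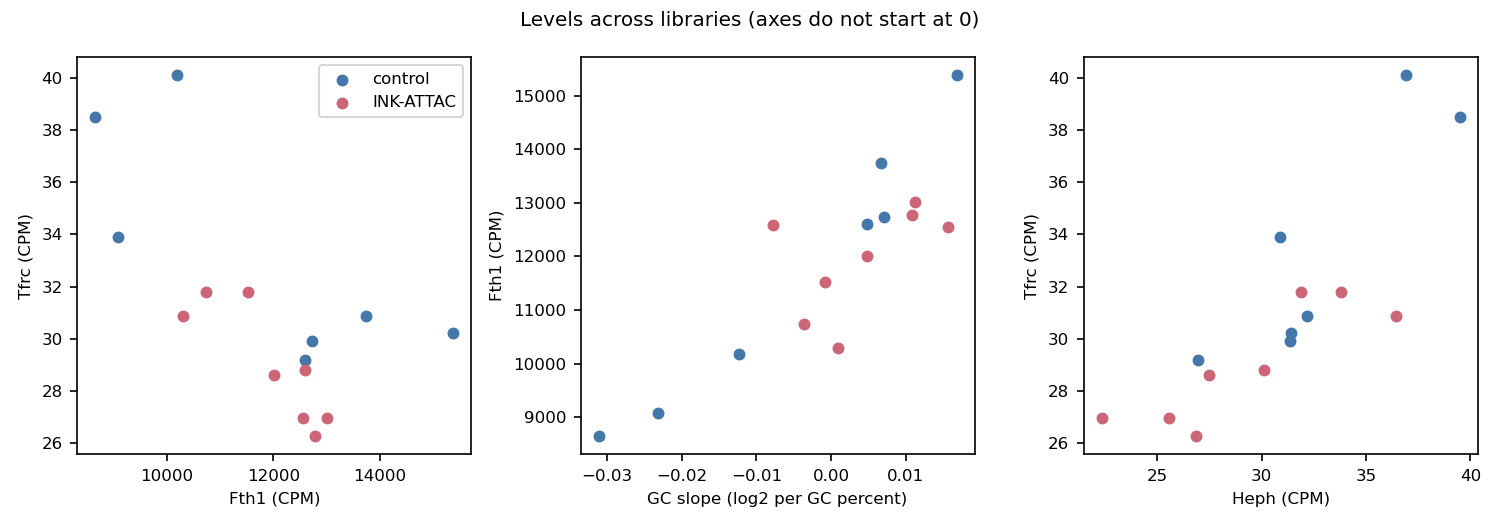
Scatter plots with 1 point per library (blue, 7 control; red, 8 INK-ATTAC): Tfrc against Fth1 in CPM, Fth1 in CPM against the GC slope of the library in log2 per GC percent, and Tfrc against Heph in CPM; axes do not start at 0. Controls 1, 4 and 5 are the points of lowest Fth1 in the first 2 panels, and Tfrc and Heph run together (r = 0.83).

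Levels were also set against 14 lists of cell type and state markers, 140 relations in all, of which 3 had an adjusted p under 0.05 by Pearson's r and 0 by Spearman's rho (lowest adjusted p = 0.0707). Hmox1 rose with the immediate early genes, which respond within minutes to stimuli and handling and of which Dusp1 was the most abundant (r = 0.79, rho = 0.77, permutation p = 0.00024, adjusted p = 0.0336). Its r was 0.66 without INK-ATTAC 2 and 5, 0.52 within controls and 0.82 within INK-ATTAC libraries. Hmox1 also ran with the length slope (r = 0.75, rho = 0.75, permutation adjusted p = 0.0078, with r = 0.67 without INK-ATTAC 2 and control 6, 0.86 within controls and 0.65 within INK-ATTAC libraries). With that slope taken out the r with the immediate early genes was 0.51, and with the GC slope taken out it was 0.78. The immediate early list had 9 of 10 genes lower in INK-ATTAC libraries (summed level 118 to 238 CPM across controls and 67.2 to 228 CPM across INK-ATTAC libraries), none past the threshold. Its part in the difference of Hmox1 was not tested.

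Trf fell as fibroblast markers, led by Dcn, rose (r = -0.78, rho = -0.75, permutation p = 0.00069, adjusted p = 0.0425). The r was -0.71 without INK-ATTAC 2 and control 2, -0.63 within controls and -0.98 within INK-ATTAC libraries. Cp rose with the markers of Müller glia and astrocytes (r = 0.79, rho = 0.75, permutation p = 0.00091, adjusted p = 0.0425), with 0.74 without INK-ATTAC 2 and control 5, 0.57 within controls and 0.88 within INK-ATTAC libraries. With the GC slope taken out the r over all libraries was -0.83 for Trf and 0.83 for Cp. With the length slope taken out it was -0.69 for Trf and 0.78 for Cp. Müller glia, which span the retina, are known to make ceruloplasmin. The most abundant gene of that list, Apoe, is also expressed by the RPE and by macrophages. Cp gave r = -0.59 with the RPE list and 0.56 with the Schwann cell and oligodendrocyte list, neither past the threshold. With the rod list its r was 0.31, with -0.47 within controls and 0.54 within INK-ATTAC libraries. Which cells the Cp transcripts came from was not tested. Heph, like Trf, ran against the fibroblast list (r = -0.72, rho = -0.76, permutation adjusted p = 0.0759, with r = -0.74 without INK-ATTAC 2 and control 2, -0.60 within controls and -0.85 within INK-ATTAC libraries), and no list passed for Slc40a1, Slc11a2, Hfe, Tfrc, Fth1 or Ftl1.

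**Figure D5:**
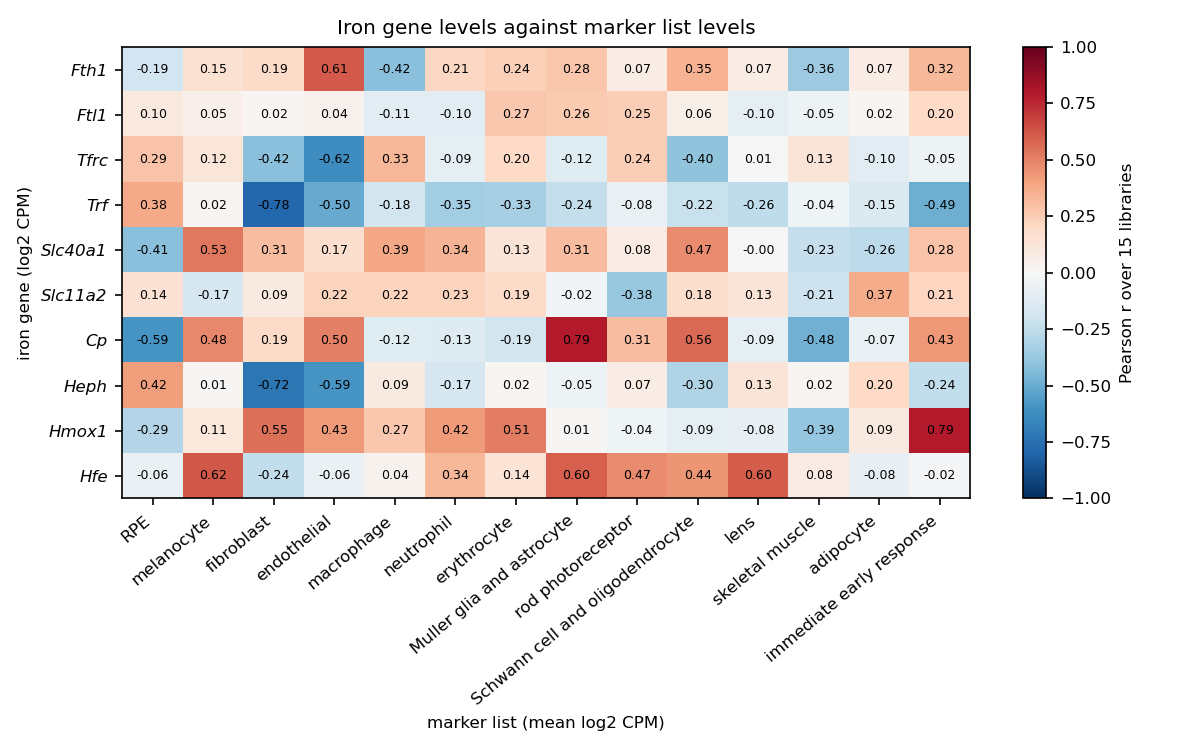
Pearson r over 15 libraries between the log2 CPM of each iron gene (vertical axis) and the mean log2 CPM of each marker list (horizontal axis), from -1 in blue to 1 in red. The strongest cells are Hmox1 with the immediate early response (0.79), Cp with Müller glia and astrocyte markers (0.79) and Trf with fibroblast markers (-0.78).

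The genes whose level followed each of the 10 most closely were found among 8911 genes by the Pearson r of log2 CPM, centred within each group, over the 15 libraries. Fth1 was followed most closely by Psen2 (r = 0.94), Paqr6 (0.93) and St6galnac4 (0.92), and Ftl1 by Tmem120a (0.88) and Aph1a (0.87). Tfrc was followed by Becn1 (0.93), Nmt2 (0.93) and Atp6v1a (0.92). Heph was followed by Cog2 (0.96), Aco1 (0.95) and Car12 (0.95). Trf had Taf9b (0.87), Commd8 (0.86) and Tgds (0.86). Slc40a1 had Supt20 (0.89) and Hpgds (0.83), Slc11a2 had Rhbdd3 (0.87), Pan2 (0.86) and Idua (0.82), and Cp had Parp14 (0.89), Tmod2 (0.89) and Tspan12 (0.87). Hmox1 had Zfp36 (0.88), Rps6kb2 (0.87) and Trp53bp1 (0.86), and Hfe had Rab31 (0.88), Aagab (0.83) and Rab33b (0.82). These libraries share the depth and GC differences given above, and the r values are a description.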

How the data were processed

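The authors deposited raw read counts per Ensembl gene for 15 libraries. The submitters' processing notes name bcl2fastq, DRAGEN, edgeR, limma and GRCm38, and per the labels' protocols cDNA was made with SMARTer. Not given in the sources used here are versions, how and with what annotation reads were counted, and whether strand was used. The authors also deposited a comparison table with log2 fold changes and log2 CPM, p-values and a score (the B statistic) per gene, per the file headers. The 40757 entries of the count table included 276 repeats of a gene, which were collapsed.

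Counts were scaled with TMM and filtered with filterByExpr, and tested with edgeR 4.0.16 (glmQLFit and glmQLFTest, two-sided, R 4.3.3) with no covariate. P-values were adjusted over all 17991 genes at a threshold of 0.05. The SE is the absolute log2 fold change over the square root of F. Correlations used log2 CPM with a prior count of 2 and 100000 permutations (scipy 1.17.1), adjusted within each family. The tests were tried on simulated data. No pair of libraries of a group agreed within sampling noise (lowest chi-square per gene 29.8). Amplified libraries without molecular identifiers make counting limits cover counting error only. Genes were named by a rule that took the 10 genes, up to 8 further iron genes of lowest p, textbook partners, the 3 most alike genes of each and the top gene of each marker list printed. Some genes that the rule takes are not reported here. The 10 genes and all lists were chosen with earlier results of these data known. Alternatives were DESeq2 1.42.0, RLE scaling, no filter, over 1 CPM in 7 libraries, limma-voom 3.58.1 with and without quality weights, a replicate block, covariates for rod, RPE, erythrocyte, skeletal muscle and Xist level, and each library left out. The GC and length slopes were added after seeing the data.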

Additional observations from a re-analysis of the deposited data

How the results depend on the processing

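None of the 10 iron genes and none of the 70 other iron genes passed the threshold under any alternative run. Over all genes the count past the threshold went from 0 with edgeR to 8 with DESeq2, 2 with limma-voom and quality weights, and 1 each with the length slope and the GC slope as a covariate. Fth1 was -0.0202 with quality weights and -0.0805 with the GC slope (0.14 with skeletal muscle level and 0.11 with the length slope), Trf 0.0363 with the GC slope, Ftl1 0.0030 with rod and 0.0020 with erythrocyte level, Slc11a2 0.0060 with erythrocyte level, 0.0259 with skeletal muscle level and 0.0382 with the length slope, Cp 0.0160 with skeletal muscle level, and Hfe 0.00060 with rod level. With each library left out in turn, Fth1 ranged from -0.0497 to 0.0964 (turned without control 1, 4 or 5 or INK-ATTAC 5), Ftl1 from -0.0456 to 0.0353 (control 3, INK-ATTAC 3), Trf from -0.0803 to 0.0066 (control 5), Slc11a2 from -0.0345 to 0.0231 (control 1, 6 or 7, INK-ATTAC 5 or 7) and Hfe from -0.0681 to 0.0065 (INK-ATTAC 6 or 7). Tfrc (-0.23 to -0.16), Slc40a1 (-0.20 to -0.09), Cp (-0.15 to -0.05), Heph (-0.22 to -0.11) and Hmox1 (-0.21 to -0.14) stayed below 0. Slc40a1 moved from -0.13 to -0.09 without control 7. Cp moved from -0.10 to between -0.06 and -0.05 without control 4 or 6 or INK-ATTAC 2 or 6, and to -0.15 without INK-ATTAC 7, and was -0.04 with the length slope. The cause of these changes was not tested.

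The title number was also used as a replicate block. That fit left out INK-ATTAC 8, whose number no control shares. In it 0 genes passed and no direction turned. The block gave Tfrc -0.17 (edgeR unadjusted p = 0.0532), Slc40a1 -0.20 and Hmox1 -0.21 (edgeR unadjusted p = 0.0039, adjusted p = 0.962). Without INK-ATTAC 8 and with no block, Tfrc was -0.18 and Slc40a1 was -0.20 as well. Hmox1 also reached -0.21 with no block, at the lowest of the fits with 1 library left out. The block values therefore hold the loss of that library as well as the block. Libraries of the same title number correlated at -0.10 to 0.29 in their deviations, over 0.1 in 4 of 7 pairs. Of the 7 controls, 1 correlated best with its own number, so the title numbers were not taken to pair libraries. The submitters' own library names number the controls otherwise than the titles do. Pairing by those names was not tested, so the check covers the title numbers only.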
